A study of Mus musculus with 6 samples.

Results

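Growth factors that macrophages release were followed in mouse bone marrow derived macrophages. The set was chosen by gene symbol, with earlier results of these data known. It holds 10 genes, Igf1, Pdgfa, Pdgfb, Pdgfc, Vegfa, Hbegf, Areg, Tgfa, Tgfb1 and Hgf. Each of 9 of them was carried by 1 probe set, out of 19938 genes that the array table measured. Areg was not analysed here, because no probe set with exactly 1 gene symbol carried its symbol in the platform annotation. M(CSF2) cells were bone marrow cells of C57BL/6 mice grown for 7 days with CSF2 (GM-CSF). M(CSF1) cells were grown for 7 days with CSF1 (M-CSF) from marrow of the same strain. The labels name no other allele or agent. RNA of the sorted cells was hybridised to Affymetrix Mouse Gene 1.0 ST arrays, with 3 arrays of M(CSF2) cells and 3 of M(CSF1) cells that the labels call biological replicates. No source used here gives the sort marker or says whether the replicates were separate mice. The p-values therefore rest on the spread among these 6 arrays, which may be technical in part.

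Macrophages feed tissue repair through a small group of secreted mitogens. VEGF-A drives the growth of blood vessels through the receptor KDR, PDGF chains recruit fibroblasts and smooth muscle cells, and HGF acts on epithelium through the receptor MET. HB-EGF, TGF-alpha and amphiregulin are made as membrane-bound precursors that ADAM proteases cut free to bind the EGF receptor. TGF-beta 1 is secreted in a latent complex and has to be released before it signals, and IGF-1 circulates with binding proteins that set how much of it reaches its receptor. The arrays measured RNA, and neither protein nor its release was measured.

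Arrays of the same group correlated at 0.995 to 0.997 over all probe sets and arrays of different groups at 0.954 to 0.959. M(CSF2) replicate 3 was the highest M(CSF2) array for 32.2% of all genes and for 49.5% of the genes called higher. The same growth factor genes were called without it. All 10 macrophage and monocyte markers were above the level of olfactory receptor genes in both groups. That level, 3.38 on the log2 scale, is the 95th percentile of 1027 olfactory receptor genes and serves as the mark for a dim gene. Of these markers 3 were called higher in M(CSF2) and 4 lower, where 11.9% and 15.6% of all genes were. Cd14, a co-receptor for bacterial lipopolysaccharide, Cd68 and Csf1r, the CSF1 receptor, rose by 1.71, 0.89 and 0.60, and are named with their values known. The 4 called lower were Fcgr1, Adgre1, Ptprc and Lyz2, at -1.23, -1.18, -0.73 and -0.48. Fcgr1 and Ptprc are likewise named with their values known. The median difference of the 10 markers was -0.29, against 0.04 over all genes. Lyz2, the macrophage lysozyme, had a mean of 11.95 in M(CSF2) and 12.43 in M(CSF1). Adgre1, which encodes F4/80, had 10.70 in M(CSF2) and 11.88 in M(CSF1), and Itgam (CD11b) had 11.17 in M(CSF2) and 11.37 in M(CSF1). The cultures are bulk samples, in which fewer cells of a type and less RNA per cell cannot be told apart.

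Vegfa, Hbegf, Pdgfa, Hgf and Tgfb1 rose in M(CSF2) cells, and Pdgfc fell. The rises ran from 1.62-fold for Tgfb1 to 10.7-fold for Vegfa, and Pdgfc was 2.0-fold lower. Igf1, Pdgfb and Tgfa did not pass the test. A gene is called here at a limma adjusted p under 0.05 over all 19938 genes. Among the 9 measured growth factors 5 were called higher, where 11.9% of all genes were, and 1 was called lower, where 15.6% of all genes were. The median difference was 0.69 on the log2 scale, against 0.04 over all genes. Together 6 of the 9 were called, where 27.5% of all genes were. At a size of at least 2-fold 4 were called higher, where 3.57% of all genes were. None was called lower at that size, Pdgfc falling just short, where 4.42% of all genes were. In 7 of the 9 the M(CSF2) and M(CSF1) values did not overlap, which held for 38.9% of all genes. Because the members were chosen with earlier results of these data known, these counts only describe the set.

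**Figure D1:**
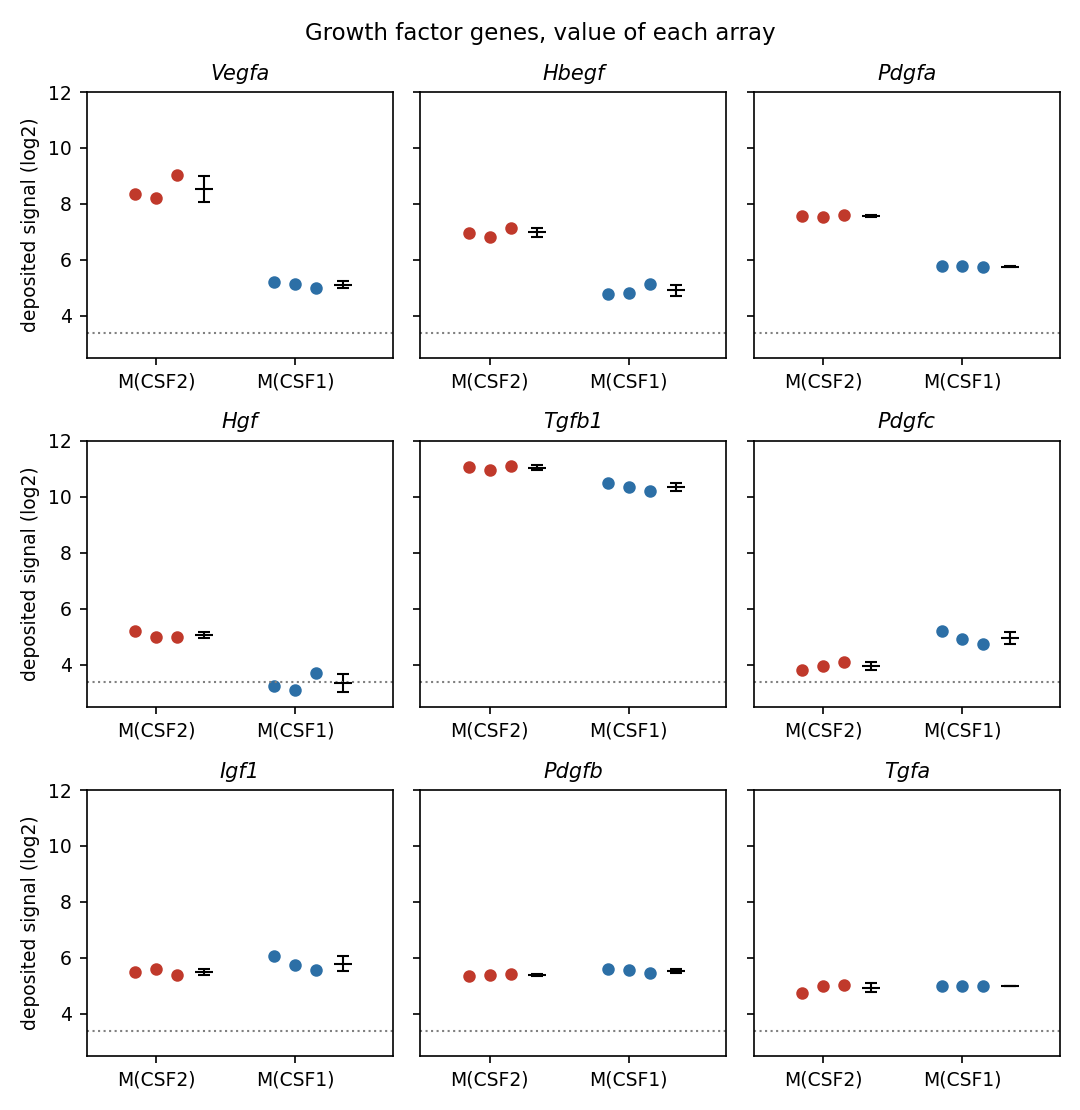
Deposited log2 signal of the 9 measured growth factor genes, 1 panel a gene, with M(CSF2) arrays in red on the left and M(CSF1) arrays in blue on the right. Each point is an array, the black bar and whiskers are the mean and SD of the 3 arrays, and the dotted line is the olfactory receptor level of 3.38. The groups lie apart in Vegfa, Hbegf, Pdgfa, Hgf, Tgfb1, Pdgfc and, by a small gap, Pdgfb, and they overlap in Igf1 and Tgfa.

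The sequences before the starts of 5 called growth factor genes are shown because 4 of them, Vegfa, Pdgfa, Hgf and Tgfb1, moved one way and Pdgfc the other. Each is the 250 bases before an annotated start, from RefSeq on GRCm38.p6, written 5′ to 3′, and 8 of the 10 genes matched the RefSeq promoter table. Where a gene has several annotated starts, the one furthest upstream is printed. Capitals mark every match to a GC box (GGGCGG, either strand), the site of SP-family factors.
Vegfa, chr17:46032378-46032627, minus strand: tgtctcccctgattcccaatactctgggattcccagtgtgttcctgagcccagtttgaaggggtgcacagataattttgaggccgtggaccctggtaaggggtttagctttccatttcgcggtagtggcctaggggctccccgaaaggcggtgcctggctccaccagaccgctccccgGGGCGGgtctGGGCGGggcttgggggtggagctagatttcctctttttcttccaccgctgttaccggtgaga
Pdgfa, chr5:138994945-138995194, minus strand: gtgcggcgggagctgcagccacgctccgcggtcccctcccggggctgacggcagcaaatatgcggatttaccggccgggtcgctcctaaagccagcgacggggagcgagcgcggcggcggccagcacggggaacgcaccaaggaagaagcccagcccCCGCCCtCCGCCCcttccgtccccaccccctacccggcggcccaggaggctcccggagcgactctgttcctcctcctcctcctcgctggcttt
Hgf, chr5:16553245-16553494, plus strand: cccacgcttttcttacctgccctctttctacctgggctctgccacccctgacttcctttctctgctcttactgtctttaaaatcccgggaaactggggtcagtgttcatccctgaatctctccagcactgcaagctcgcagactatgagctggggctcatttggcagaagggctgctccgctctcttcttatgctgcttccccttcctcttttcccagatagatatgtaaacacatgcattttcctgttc
Tgfb1, chr7:25686752-25687001, plus strand: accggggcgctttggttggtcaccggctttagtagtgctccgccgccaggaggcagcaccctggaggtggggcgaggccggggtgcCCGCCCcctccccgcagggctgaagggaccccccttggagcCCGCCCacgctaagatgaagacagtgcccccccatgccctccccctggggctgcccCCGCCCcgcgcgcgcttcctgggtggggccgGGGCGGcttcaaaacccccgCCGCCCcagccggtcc
Pdgfc, chr3:81036166-81036415, plus strand: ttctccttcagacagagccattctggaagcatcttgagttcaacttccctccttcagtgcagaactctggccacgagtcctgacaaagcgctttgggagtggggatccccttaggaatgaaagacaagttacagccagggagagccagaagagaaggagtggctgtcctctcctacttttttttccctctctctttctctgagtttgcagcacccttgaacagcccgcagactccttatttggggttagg
The Vegfa window held 2 GC boxes, at positions -72 and -62 counted from the start, the Pdgfa window held 2, at -93 and -86, and the Tgfb1 window held 5. In the Hgf and Pdgfc windows these letters did not occur. Over all 32851 windows of the same length, 32.7% held at least 1 GC box. G and C made up 59.2% of the Vegfa window, 72.4% of Pdgfa and 75.2% of Tgfb1, against 50.8% in Hgf and in Pdgfc and a median of 52.4% over all windows. The letters of a STAT site (TTCNNNGAA, held by 7.02% of all windows), of the core that hypoxia-inducible factors bind (ACGTG, 16.6%, either strand) and of an AP-1 site (TGANTCA, 6.75%) occurred in none of the 5 windows printed. A second, internal start of Vegfa had 1 hypoxia core, at position -211. A match is a description of letters and no evidence that a factor binds there.

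Vegfa encodes the main growth factor of blood vessel endothelium and had the largest difference of the set. Its log2 signal was 8.34, 8.21 and 9.05 in the 3 M(CSF2) arrays, against 5.21, 5.14 and 4.98 in the 3 M(CSF1) arrays. All M(CSF2) arrays lay far above every M(CSF1) array, and the third M(CSF2) array (replicate 3) was the highest. The difference was 3.42 on the log2 scale (SE 0.21, limma adjusted p = 1.4e-05), a 10.7-fold rise with a 95% interval of 7.67 to 14.9. It had rank 108 among the rises of all 19938 genes. Without the third M(CSF2) array it was 3.16.

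Hbegf encodes heparin-binding EGF-like growth factor, a mitogen for smooth muscle and epithelial cells. It had 6.95, 6.83 and 7.15 in M(CSF2) and 4.77, 4.82 and 5.13 in M(CSF1), with a gap between the groups wider than the spread within either. It rose by 2.07 (SE 0.12, limma adjusted p = 1.3e-05), 4.20-fold with an interval of 3.45 to 5.12. Tgfa, which encodes another ligand of the EGF receptor, gave 4.74, 4.99 and 5.04 in M(CSF2) and 5.01, 4.99 and 4.99 in M(CSF1). These groups overlapped, and 3 of the 6 arrays shared the same value to 3 decimals. The Tgfa difference was -0.07 with a 95% interval of -0.29 to 0.14 (limma adjusted p = 0.613), and the interval does not reach a change of 0.5 in either direction. It describes the signal only, since whether this probe set follows the amount of Tgfa RNA was not tested.

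The 3 PDGF genes went different ways. Pdgfa, whose product signals through PDGF receptor alpha, had 7.56, 7.52 and 7.61 in M(CSF2) and 5.76, 5.77 and 5.74 in M(CSF1). The arrays of each group lay close together, far from those of the other, and the rise of 1.81 (SE 0.06, limma adjusted p = 1.4e-06) was 3.50-fold, with an interval of 3.16 to 3.89. Pdgfc encodes a chain that needs proteolytic removal of its CUB domain before it binds PDGF receptor alpha. Pdgfc had 3.80, 3.96 and 4.11 in M(CSF2) and 5.19, 4.94 and 4.74 in M(CSF1). Every M(CSF2) array was below every M(CSF1) array, and Pdgfc fell by 1.00 (SE 0.13, limma adjusted p = 0.00083), with an interval of 1.62 to 2.47-fold lower. Pdgfb, the B chain that binds both PDGF receptors, had 5.34, 5.40 and 5.43 in M(CSF2) and 5.61, 5.56 and 5.46 in M(CSF1). The groups were apart by a gap smaller than the spread within either, and the difference of -0.15 did not pass the test (interval -0.32 to 0.02, limma adjusted p = 0.18).

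Hgf encodes hepatocyte growth factor, also called scatter factor. It had 5.20, 4.98 and 5.0 in M(CSF2), against 3.25, 3.08 and 3.70 in M(CSF1). All M(CSF2) arrays were above the olfactory receptor level, and 2 of the 3 M(CSF1) arrays were at or below it. The rise of 1.71 (SE 0.16, limma adjusted p = 0.00012) was 3.28-fold, with an interval of 2.55 to 4.22. A signal near the background understates the fold of a dim gene.

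Tgfb1 encodes the latent cytokine TGF-beta 1. Its values were 11.09, 10.95 and 11.12 in M(CSF2), against 10.51, 10.36 and 10.21 in M(CSF1). The groups did not overlap, and Tgfb1 rose by 0.69 (SE 0.10, limma adjusted p = 0.0011), 1.62-fold with an interval of 1.39 to 1.89. This was the smallest of the 5 rises, with rank 1119 of all genes against 262 for Hbegf, 327 for Pdgfa and 347 for Hgf.

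Igf1, which encodes insulin-like growth factor 1, had 5.48, 5.59 and 5.39 in M(CSF2) and 6.07, 5.75 and 5.55 in M(CSF1). The highest M(CSF2) array lay above the lowest M(CSF1) array, and the M(CSF1) arrays were the more spread. The difference of -0.30 did not pass the test (interval -0.61 to 0.01, limma adjusted p = 0.154). A fall of up to 1.53-fold lies within the interval.

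**Figure D2:**
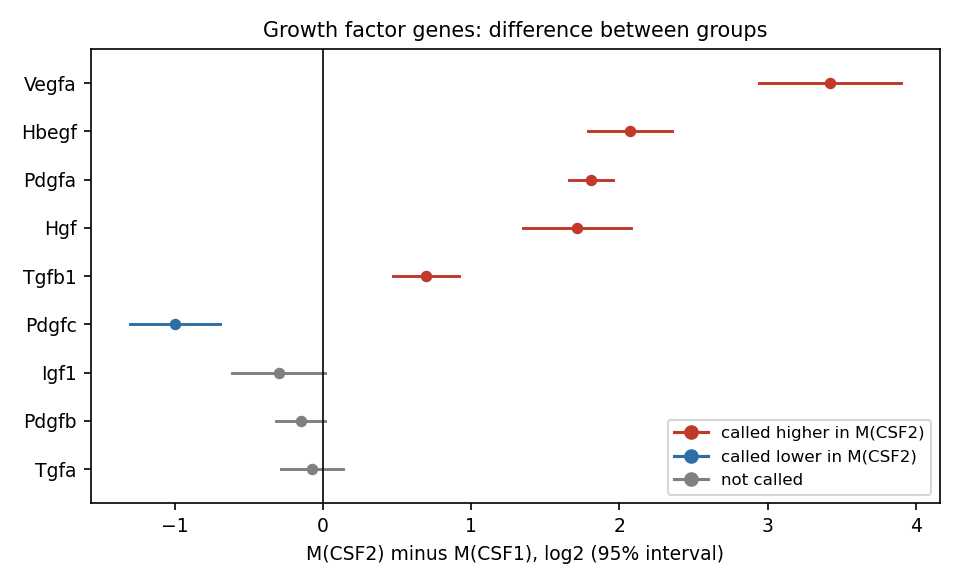
Log2 difference, M(CSF2) minus M(CSF1), of each measured growth factor gene, with its 95% interval from the limma fit of 3 against 3 arrays. Genes called higher in M(CSF2) are red, the gene called lower is blue and those not called are grey. Vegfa stands at 3.42, clear of Hbegf at 2.07, and the intervals of Igf1, Pdgfb and Tgfa cross 0.

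Receptors for these ligands were called in 11 of 20 cases (27.5% of all genes were), 10 higher and 1 lower in M(CSF2) (median 0.38). Kdr had the largest difference of the 20. Kdr, the main signalling receptor for VEGF-A, averaged 8.07 ± 0.26 in M(CSF2) and 4.54 ± 0.35 in M(CSF1) (SD, n = 3 arrays each), an 11.6-fold rise (limma adjusted p = 8.9e-06). Nrp1, a VEGF co-receptor, rose by 1.72 and its relative Nrp2 by 0.51, a call that ordinary least squares ends (adjusted p = 0.0624). Flt1, which encodes VEGF receptor 1, rose by 0.89 (limma adjusted p = 0.011), a call lost when M(CSF1) replicate 1 was left out (0.80, adjusted p = 0.0649). Kdr is also a marker of endothelium, and the part of endothelial cells in its value was not tested. Of the 10 endothelial markers 2 were called higher (Kdr and Cdh5) and 1 lower, where 11.9% and 15.6% of all genes were. Tek, Emcn and Ptprb were at or below the olfactory receptor level on all arrays. Without Kdr the other 9 endothelial markers summed to 142 to 152 in linear signal in M(CSF2) and 148 to 163 in M(CSF1), ranges that overlap. That sum leaned on Pecam1, the brightest of the 9, with means of 5.30 in M(CSF2) and 6.09 in M(CSF1). At an unadjusted limma p under 0.05, 4 of all 10 endothelial markers were higher and 1 was lower. Cdh5, which encodes VE-cadherin, had 4.72 in M(CSF2) and 3.69 in M(CSF1), and Pecam1 fell by 0.79, with the call lost without M(CSF1) replicate 1 (-0.73, adjusted p = 0.0607) or M(CSF1) replicate 2 (-0.71, adjusted p = 0.0618).

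Igf1r, the receptor for IGF-1, averaged 6.74 ± 0.34 in M(CSF2) and 4.78 ± 0.04 in M(CSF1) (SD, n = 3 each), a rise of 1.96 (limma adjusted p = 5.8e-05) beside a ligand that was not called. Met, the HGF receptor, rose by 0.68 (limma adjusted p = 0.0078), a call that ordinary least squares ends (adjusted p = 0.0735). Eng, a TGF-beta co-receptor also called endoglin, rose by 1.16. The TGF-beta receptor chains went opposite ways. Tgfbr2, the chain that binds the ligand first, averaged 7.17 ± 0.22 in M(CSF2) and 8.68 ± 0.13 in M(CSF1) (SD, n = 3 each) and fell by 1.51 (limma adjusted p = 6.9e-05). Tgfbr1, the chain that it activates, rose by 0.53 (limma adjusted p = 0.028). That call ended without M(CSF1) replicate 1 or without any 1 of the 3 M(CSF2) arrays, at 0.44 to 0.60 and adjusted p of 0.0555 to 0.118.

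The PDGF receptors gave no called difference. Pdgfra had 3.32 in M(CSF2) and 3.27 in M(CSF1), below the olfactory receptor level on all 6 arrays. Pdgfrb had 5.05 in M(CSF2) and 4.92 in M(CSF1) (difference 0.13, interval -0.10 to 0.35). Among the EGF receptor family, Egfr had 4.47 in M(CSF2) and 4.98 in M(CSF1), a difference of -0.51 that missed the threshold (limma adjusted p = 0.0634) and passed it without M(CSF1) replicate 2 (-0.66, adjusted p = 0.0338). Erbb2 gave 0.16, Erbb3 gave -0.22 and Erbb4 gave 0.14, none of them called. Erbb4 was below the olfactory receptor level on all 6 arrays.

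**Figure D3:**
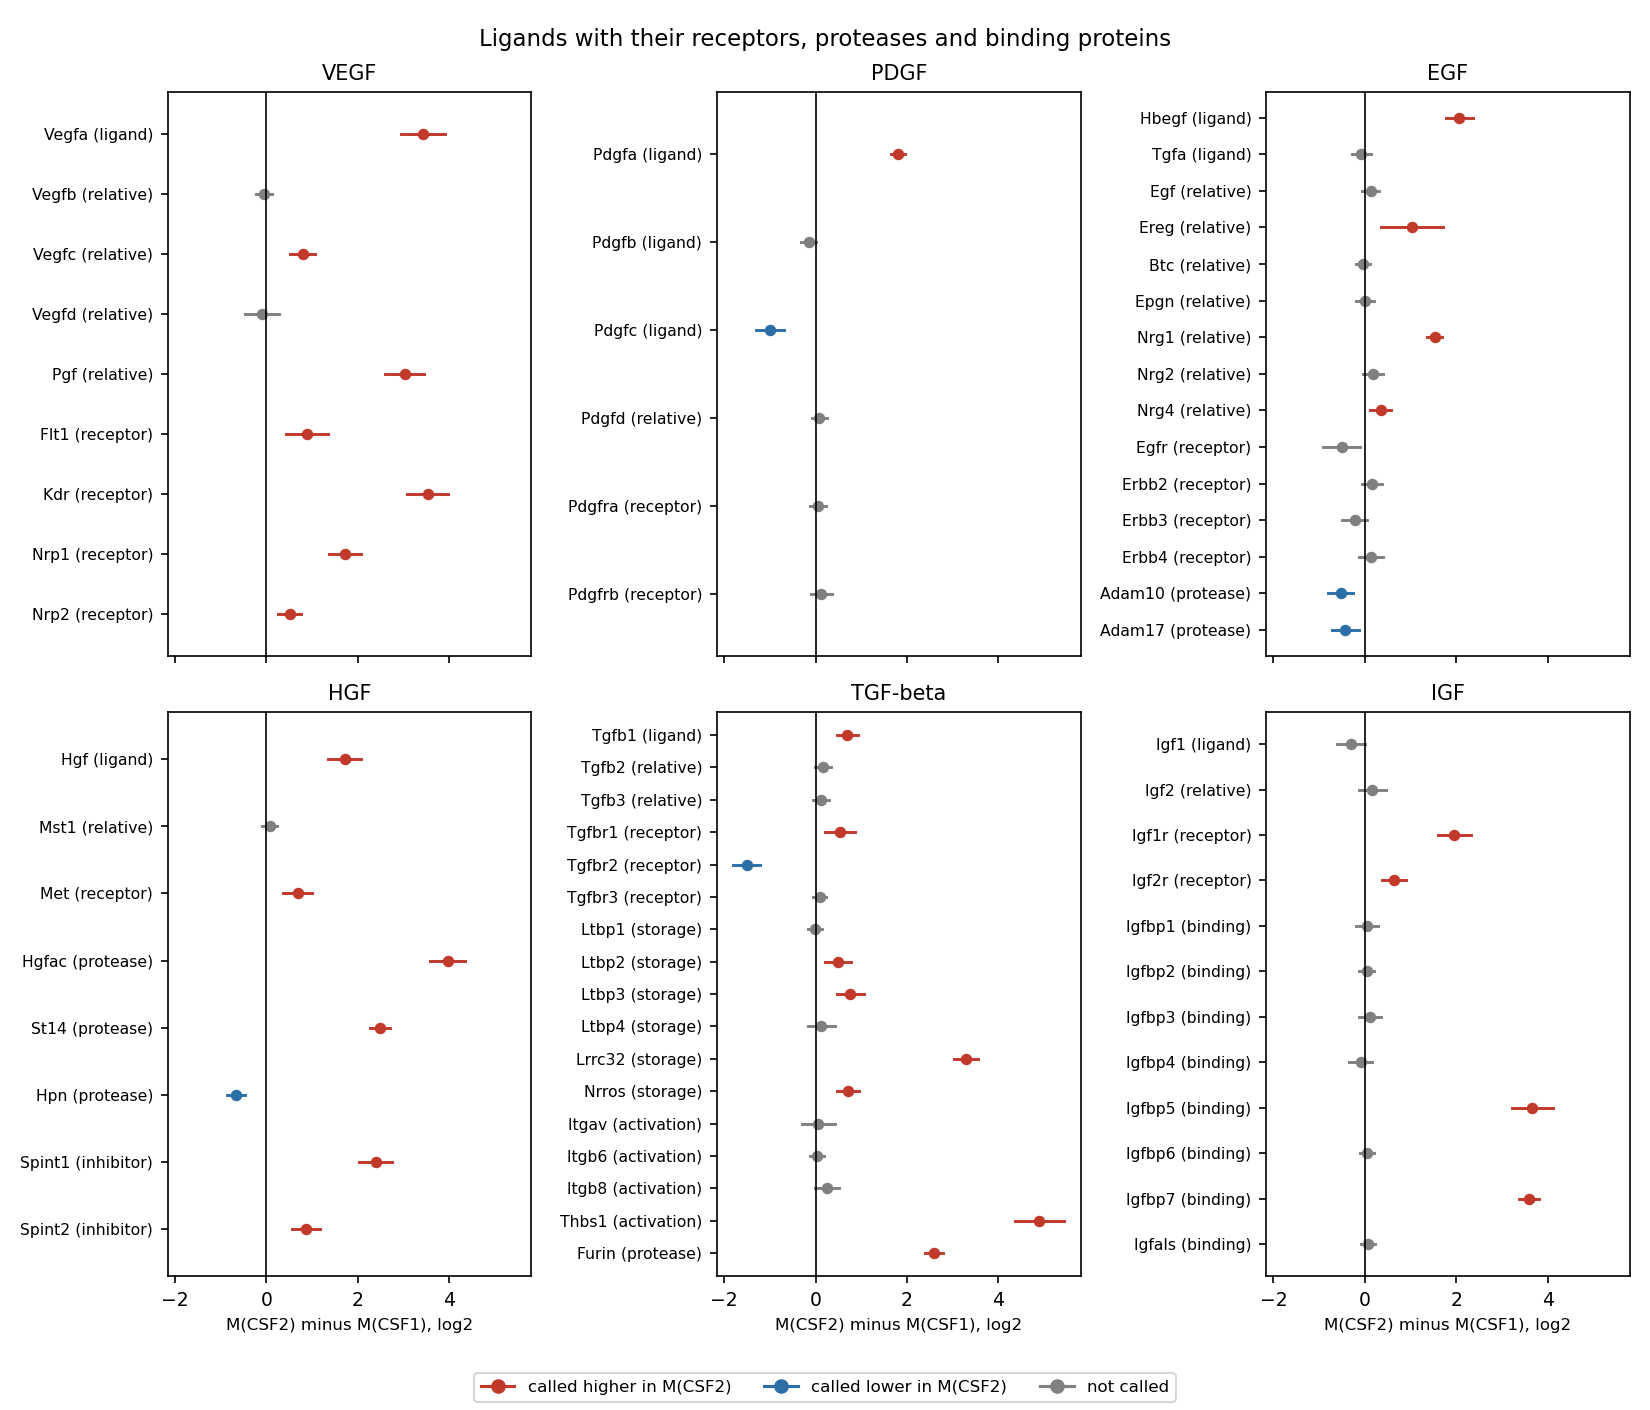
Log2 differences, M(CSF2) minus M(CSF1), with 95% intervals for the ligands and for the receptors, relatives, proteases, storage and binding proteins of each growth factor system, 1 panel a system. Red marks genes called higher in M(CSF2), blue genes called lower and grey genes not called. In the VEGF panel Vegfa, Pgf and Kdr stand above 3, in the HGF panel every gene but Mst1 and Hpn is red, and in the PDGF panel only Pdgfa is red.

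Close relatives of the growth factors were called in 5 of 16 cases, where 27.5% of all genes were. All 5 were higher in M(CSF2) by limma, where 11.9% of all genes were (median 0.15). At an unadjusted p under 0.05 none was lower either. Pgf, the placental growth factor that binds VEGF receptor 1, averaged 7.78 ± 0.32 in M(CSF2) and 4.75 ± 0.26 in M(CSF1) (SD, n = 3 each), an 8.13-fold rise (limma adjusted p = 1.6e-05). Vegfc, a growth factor for lymphatic vessels, rose by 0.79. Nrg1, the neuregulin that binds ERBB3 and ERBB4, rose by 1.53 (limma adjusted p = 3.8e-06). Ereg, which encodes the EGF receptor ligand epiregulin, had 4.25 ± 0.54 in M(CSF2) and 3.23 ± 0.42 in M(CSF1) (SD, n = 3 each), with 2 of 3 M(CSF1) arrays at or below the olfactory receptor level. Its call (limma adjusted p = 0.0348) ended without M(CSF1) replicate 1 or 2 or without M(CSF2) replicate 1 or 3, at 0.76 to 1.02 and adjusted p of 0.103 to 0.154.

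IGF-binding proteins and IGF handling genes were called in 5 of 15 cases, where 27.5% of all genes were. All 5 were higher by limma, where 11.9% of all genes were, and none was lower at an unadjusted p under 0.05. The median was 0.07, against 0.04 over all genes. Igfbp5 averaged 7.69 ± 0.34 in M(CSF2) and 4.02 ± 0.27 in M(CSF1) (SD, n = 3 each), a 12.7-fold rise (limma adjusted p = 7.8e-06). Igfbp7, whose product binds IGF-1 weakly, rose 12.1-fold. Igf2r, which takes up IGF-2 and carries mannose 6-phosphate proteins to lysosomes, rose by 0.64, and Irs2, an adaptor of the IGF-1 receptor, by 0.91. By ordinary least squares Irs2 was not called (adjusted p = 0.0665).

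Proteases and inhibitors that release or activate growth factors were called higher in 8 of 21 measured cases and lower in 6 (median 0.20). The shares of all genes were 11.9% and 15.6%. The enzymes that cut pro-HGF were among them. Hgfac, the HGF activator protease, averaged 7.83 ± 0.17 in M(CSF2) and 3.87 ± 0.32 in M(CSF1) (SD, n = 3 each), a 15.7-fold rise (limma adjusted p = 2.5e-06). St14, which encodes the membrane protease matriptase, rose 5.60-fold (adjusted p = 1.8e-06), while Hpn, the membrane protease hepsin, fell by 0.67. Spint1 and Spint2 encode inhibitors of these proteases. They rose by 2.39 and 0.86 and are named with their values already known. Furin, the convertase that cleaves pro-TGF-beta 1, rose 6.04-fold (adjusted p = 9.7e-07). Plau, the urokinase that makes plasmin, rose 6.28-fold.

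Of the 6 ADAM protease genes in the list 4 fell. Adam8, singled out once its values were known, rose by 1.21, and Adam12 was dim in both groups. Adam17, the main enzyme that frees TGF-alpha, amphiregulin and HB-EGF, averaged 8.57 ± 0.23 in M(CSF2) and 9.0 ± 0.11 in M(CSF1) (SD, n = 3 each). Its fall of 0.43 (limma adjusted p = 0.0385) stayed called only without M(CSF2) replicate 3. Without any 1 of the 3 M(CSF1) arrays, or M(CSF2) replicate 1 or 2, it was -0.49 to -0.30 at adjusted p of 0.0536 to 0.148. Adam10 fell by 0.53 (limma adjusted p = 0.0102), but leaving out M(CSF1) replicate 2 gave -0.49 (adjusted p = 0.0572). Adam9 fell by 1.09 and Adam15 by 0.58. Rhbdf1, which encodes a partner of ADAM17, fell by 0.54, a call that ordinary least squares ends (adjusted p = 0.0681). Its relative Rhbdf2, picked with its values known, went the other way and was the brighter gene. Rhbdf2 had 7.98 in M(CSF2) and 7.54 in M(CSF1) and rose by 0.44 (limma adjusted p = 0.012).

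Genes for the storage and activation of latent TGF-beta were called higher in 6 of 15 measured cases and lower in 1 (median 0.25). Among all genes 11.9% were called higher and 15.6% lower. Thbs1, the thrombospondin that can release TGF-beta from its latent complex, averaged 11.21 ± 0.17 in M(CSF2) and 6.32 ± 0.50 in M(CSF1) (SD, n = 3 each), a 29.8-fold rise (limma adjusted p = 4.7e-06). Lrrc32, which encodes GARP, an anchor for latent TGF-beta 1 on the cell surface, rose 9.76-fold (adjusted p = 1.2e-06). Its relative Nrros, picked with its values known, had 6.20 in M(CSF2) and 5.49 in M(CSF1) and rose by 0.71. Ltbp3, a matrix anchor of the latent complex, rose by 0.76, and Dcn, the TGF-beta-binding proteoglycan decorin, by 3.30. Itgb1, the integrin beta 1 chain, gave -0.43 (limma adjusted p = 0.0288), a call that ended without any 1 of the M(CSF1) arrays or M(CSF2) replicate 1 (-0.48 to -0.40, adjusted p 0.0535 to 0.114).

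SMAD signalling and TGF-beta target genes split, with 8 of 19 measured genes higher and 6 lower (median -0.02), where 11.9% and 15.6% of all genes were. Smad3, which carries the TGF-beta signal to the nucleus, averaged 3.74 ± 0.23 in M(CSF2) and 6.64 ± 0.16 in M(CSF1) (SD, n = 3 each) and was 7.47-fold lower (limma adjusted p = 4e-06). Smad1, which serves BMP receptors, fell by 1.60, the ubiquitin ligase Smurf2 by 1.10 and the pseudoreceptor Bambi by 0.76. A dimmer second probe set of Smurf2 gave -0.82. Pmepa1 and Tgfbi, both known as TGF-beta-induced genes, rose by 2.72 and 1.91. Id2 rose by 1.42 and the repressor Tgif1 by 1.03.

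Vegfa is a classic target of hypoxia-inducible factors (HIF), so oxygen sensing genes were set beside it. Of 25 such genes 15 were called higher and 3 lower in M(CSF2), with a median of 0.49. The shares of all genes were 11.9% and 15.6%. Hif1a itself had 8.65 in M(CSF2) and 8.28 in M(CSF1), a difference of 0.36 that was not called (limma adjusted p = 0.151) except without M(CSF2) replicate 2 (0.52, adjusted p = 0.044). Egln3, an oxygen-sensing prolyl hydroxylase that HIF induces, averaged 8.60 ± 0.51 in M(CSF2) and 3.99 ± 0.23 in M(CSF1) (SD, n = 3 each), a 24.5-fold rise (adjusted p = 7.3e-06). Hilpda, a lipid droplet protein, rose 15.8-fold, the MYC antagonist Mxi1 3.60-fold and Ankrd37 3.15-fold.

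Ndrg1, Adm and Egln2 were the 3 genes of the list called lower. At an unadjusted limma p under 0.05, 15 of the list were higher and 4 lower. The other lower gene was Arnt (-0.30), named with its values known. Ndrg1 averaged 8.34 ± 0.41 in M(CSF2) and 11.13 ± 0.15 in M(CSF1) (SD, n = 3 each) and was 6.94-fold lower (limma adjusted p = 2.8e-05). Adm, which encodes the vessel-relaxing peptide adrenomedullin, was 3.81-fold lower. Egln2, another prolyl hydroxylase, was 2.63-fold lower.

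The third M(CSF2) array, in which Vegfa was highest, was also the highest of the 3 for 21 of the 25 oxygen sensing and HIF target genes, including all 15 called higher. It was the highest for 7 of the 9 growth factor genes too (77.8%). Over all genes called higher the same array was highest in 49.5%, and over all genes tested in 32.2%. Its value exceeded the mean of the other M(CSF2) arrays by 0.77 for Vegfa, 0.87 for Egln3, 0.57 for Hilpda, 0.72 for Ankrd37 and 0.21 for Mxi1. Over the 15 list genes called higher this gap ran from 0.09 for Vhl to 0.94 for Bnip3, both named with their values known. The third M(CSF2) array exceeded that mean for Ndrg1 and Adm too, by 0.69 and 0.71, although both were lower in M(CSF2). The corresponding gap was 0.26 for Hbegf, 0.07 for Pdgfa, 0.10 for Tgfb1 and -0.09 for Hgf. This comparison was made after the Vegfa values were seen, and its cause was not tested.

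**Figure D4:**
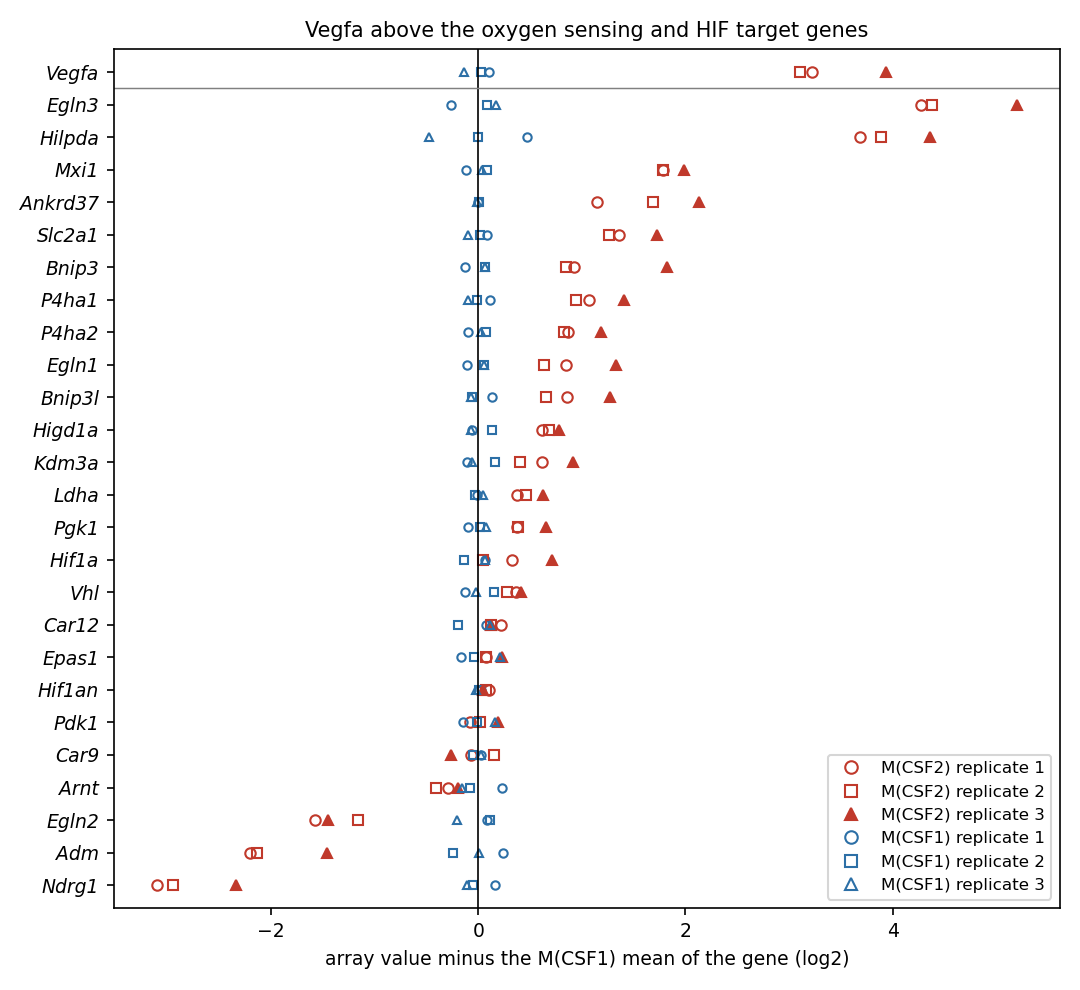
Each array's log2 value of Vegfa (top row) and of the 25 oxygen sensing and HIF target genes, minus the mean of the 3 M(CSF1) arrays of that gene. Red symbols are M(CSF2) arrays, with replicate 3 filled, and blue symbols are M(CSF1) arrays. The filled triangle is the rightmost red symbol in Vegfa and in all 15 genes called higher, and also in Ndrg1 and Adm at the bottom.

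Genes whose pattern over the 6 arrays was nearest to a growth factor were found by Euclidean distance after centring each gene on its mean. Nearest to Vegfa, the member with the largest rise, were Dcn (distance 0.24), A530064D06Rik (0.34) and Chst11 (0.35), with differences of 3.30, 3.36 and 3.26. Nearest to Pdgfc, the only member called lower, were Mmachc (0.10), Plbd2 (0.11) and Nab1 (0.12), with differences of -1.03, -0.98 and -0.98.

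Markers of other growth factor producing cells moved in part. Platelets and their precursors carry PDGF and TGF-beta 1. Of 7 measured megakaryocyte and platelet markers 4 were called higher and 1 lower, where 11.9% and 15.6% of all genes were. The list summed to 2572 to 2634 in linear signal in M(CSF2) and 294 to 359 in M(CSF1). Pf4, a platelet chemokine, made up most of the M(CSF2) sum. It averaged 11.08 in M(CSF2) and 7.45 in M(CSF1), and Ppbp had 8.13 in M(CSF2) and 5.72 in M(CSF1). Itga2b, which defines the lineage, had 4.30 in M(CSF2) and 4.18 in M(CSF1) and was not called, and Gp9 fell by 0.50. Vwf, the von Willebrand factor of platelets and endothelium, had 5.93 in M(CSF2) and 4.31 in M(CSF1) and rose by 1.62 (limma adjusted p = 2.3e-06). Itga2b, Gp9 and Vwf were picked with their values known. Treml1 gave 0.37, a call lost without M(CSF1) replicate 1 or 3 or M(CSF2) replicate 2 or 3 (0.29 to 0.37, adjusted p 0.0998 to 0.143). The part of these markers in the Pdgfa and Tgfb1 values was not tested.

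Fibroblasts make Hgf and Igf1. Of 12 fibroblast and stromal markers 2 were called higher and 1 lower, where 11.9% and 15.6% of all genes were. Summed signals were 389 to 448 in M(CSF2) and 327 to 378 in M(CSF1). The higher M(CSF2) sum leaned on Dcn, the brightest of the 12 in M(CSF2), with means of 6.88 in M(CSF2) and 3.58 in M(CSF1). Lum, Pdgfra, Cxcl12 and Lepr were at or below the olfactory mark in each group. The marker called lower was Postn, the matrix protein periostin, with 3.47 in M(CSF2) and 6.38 in M(CSF1), 7.53-fold lower (limma adjusted p = 0.00018). It is named with its values known. Besides Dcn, which rose by 3.30, the markers brightest over all arrays were Acta2, with 5.95 in M(CSF2) and 5.55 in M(CSF1), and Col6a1, with 5.87 in M(CSF2) and 5.61 in M(CSF1). The Acta2 call (limma adjusted p = 0.0424) held only without M(CSF2) replicate 3. Without each of the other arrays in turn it was 0.29 to 0.44 at adjusted p of 0.0625 to 0.156. Col6a1 was not called except without M(CSF1) replicate 3 (0.35, adjusted p = 0.038). The part of stromal cells in the Hgf value was not tested.

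The lists that follow stand beside 11.9% of all genes called higher and 15.6% called lower. Mast cells and basophils had 4 of 12 markers called higher, Hdc (4.43), Gata2 (2.52), Kit (1.32) and the dim Mcpt8, with sums of 536 to 621 in M(CSF2) and 116 to 139 in M(CSF1). Their defining genes Cpa3, Mcpt4, Mcpt8, Cma1, Tpsab1, Fcer1a and Ms4a2 had means no higher than the olfactory mark in either group. T cell and ILC2 markers had 3 of 9 measured genes higher, Il7r (3.68), Icos (1.73) and Thy1 (0.34), with sums of 644 to 730 in M(CSF2) and 138 to 165 in M(CSF1), and Cd3d, Cd3g and Klrg1 were at or below that level. In neither list was a gene lower by limma or at an unadjusted p under 0.05. Neutrophil markers had 3 of 12 higher and 1 lower. Mmp8 (4.44) and S100a8 (2.37) rose and Csf3r (-1.57) fell, with sums of 2616 to 2993 in M(CSF2) and 689 to 794 in M(CSF1). The other gene called higher was the dim Ltf (0.31). S100a9 had 4.21 in M(CSF2) and 4.55 in M(CSF1) and was not called (-0.34, limma adjusted p = 0.0717). Ltf and S100a9 are named with their values known. Ly6g, Ltf, Ngp and Cxcr2 were at or below the olfactory receptor level. Dendritic cell markers had 5 of 10 higher, led by Ccl17, Ccl22 and Itgax (8.46, 5.84 and 5.05), and summed to 8734 to 9574 in M(CSF2) and 220 to 224 in M(CSF1). The others called higher were Ccr7 (3.93) and the dim Clec9a (0.27). Flt3 (-0.08), Zbtb46 (0.26) and Batf3 (-0.20) were not called. Ccr7, Flt3, Zbtb46 and Batf3 are named with their values known. The mean levels of Xcr1, Clec9a and Siglech did not exceed the olfactory mark in either group, and no dendritic cell marker was lower by limma or at an unadjusted p under 0.05. Hdc, Il7r, Mmp8 and Ccl17 were the brightest genes of their lists in M(CSF2), and so the largest parts of those sums. What part mast cells, T cells, neutrophils and dendritic cells had in the growth factor values was not tested.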

How the data were processed

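RNA of 3 M(CSF2) and 3 M(CSF1) samples was measured on 1-colour Affymetrix arrays. The authors deposited a table of 28941 probe sets with 1 column of log2 values for each array. Base 2 was inferred, since other bases give signals no scanner records. The submitters' processing notes name MAS5. No source used here says how background, normalization and summary were done. The table holds no detection calls, and the number of arrays limits the precision.

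Of the probe sets, 21789 carry 1 gene symbol in the platform annotation, of which 21698 were found by Entrez identifier in a RefSeq table (GRCm38.p6). The other 7152 were not used. The brightest probe set stood for a gene, and no filter was set. The limma package (3.58.1, under R 4.3.3) gave all differences (lmFit, eBayes, 2-sided, Benjamini-Hochberg over 19938 genes). Every adjusted p comes from limma, with no moderation where ordinary least squares is named. Lists are described by counts and medians, with no set test.

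The members, gene lists, alternatives and the olfactory receptor mark were chosen with earlier results of these data known. Text names every member, the main receptors, Adam10, Adam17 and Hif1a, up to 4 called genes per list and direction, the 3 brightest markers per cell type and the 3 genes nearest to 2 members. Others are marked or are listed as dim. The fit was tested on simulated data.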

Additional observations from a re-analysis of the deposited data

How the results depend on the processing

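The 9 growth factor results were recomputed under 16 alternatives, 15 for Hgf, which a filter at the median signal removes. Arrays were quantile normalized or centred, dim genes were dropped at 2 levels, probe sets were averaged per gene or tested singly, and the variance was modelled with a trend, robustly or not moderated at all. A replicate block was added, and each array was left out once. The 5 members called higher and 1 called lower were called in all of them, and Igf1, Pdgfb and Tgfa in none. Each member has 1 probe set, so averaging probe sets or testing them singly could not change its difference. The dim filters, variance models and replicate block also left the differences as they were and could move only the p-values. The lowest and highest differences on the log2 scale were 3.16 and 3.58 for Vegfa, 1.99 and 2.18 for Hbegf, 1.76 and 1.89 for Pdgfa, 1.58 and 1.89 for Hgf, 0.62 and 0.77 for Tgfb1 and -1.11 and -0.88 for Pdgfc. Tgfa ran from -0.13 without M(CSF2) replicate 3 to 0.017 without M(CSF2) replicate 1, where it turned sign (adjusted p = 0.889). Igf1 ran from -0.42 to -0.16, with adjusted p of 0.0501 to 0.364.

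Of all genes, 5488 were called, 4254 to 5490 with an array left out and 3769 to 5849 under the other settings. Replicate numbers are shared by both groups. Deviations of same-numbered arrays from their group means correlated at 0.004, -0.044 and -0.253, so the numbers were not taken as pairs. With the replicate block 5072 genes were called, 5 members higher and 1 lower. Egfr was called under the block (adjusted p = 0.0282), after quantile normalization (0.0324) or median centring (0.0477) and under either dim filter (0.0234 and 0.0332). By ordinary least squares the calls of Flt1 (adjusted p = 0.0998), Nrp2, Tgfbr1 (0.14), Met, Adam10 (0.0727), Adam17 (0.153), Ereg (0.181), Irs2, Rhbdf1, Itgb1 (0.127), Acta2 (0.153), Treml1 (0.147) and Pecam1 (0.093) were lost. Acta2 was also lost under the block (0.0549), and Treml1 after median centring (0.0587) and with an intensity trend (0.0506). No scaling moved the median of all genes by over 0.1. Signal near the background limits Hgf, Ereg and Pdgfra.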
